A study of Arabidopsis thaliana with 4 samples.

Results

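The genes described are TIR1, the activating auxin response factor genes ARF6, ARF7, ARF8 and ARF19, and the auxin conjugation genes GH3.3, GH3.5 and DFL1 (also named GH3.6). They were taken by their locus codes, AT3G62980, AT1G30330, AT5G20730, AT5G37020, AT1G19220, AT2G23170, AT4G27260 and AT5G54510. They are 8 of 27432 nuclear protein-coding genes of Arabidopsis thaliana. For each of them, every deposited FHY1 peak that overlapped the gene extended by 1000 bp at both ends was collected. FHY1 is needed for the far-red photoreceptor phyA to enter the nucleus. The study asked with which genes FHY1 associates under far-red light, and whether these are also genes of phyA. ChIP-seq was done on etiolated seedlings of genotype 35S:GFP-FHY1, fhy1-1, in which the constitutive 35S promoter drives the GFP fusion and the endogenous gene is mutated. At 4 days of age they received far-red light for 3 h. There were 3 biological replicates of the ChIP (group FHY1 ChIP) and 1 input DNA sample of the same genotype and treatment, which was not analysed here. The labels name an anti-GFP antibody and the design text one against FHY1. Since all samples shared 1 genotype and 1 light treatment, no difference between conditions was measured, and a dark control or a line without the fusion was not analysed here.

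Auxin is perceived by F-box proteins of the TIR1 family, which sit in an SCF ubiquitin ligase and mark Aux/IAA repressors for breakdown when auxin is bound. This frees the auxin response factors, DNA-binding proteins of which ARF6, ARF7, ARF8 and ARF19 activate transcription. Among their targets are GH3 genes such as GH3.3, GH3.5 and DFL1, whose enzymes join auxin to amino acids and so lower the free hormone. In seedlings the pathway drives the growth of the hypocotyl, which phytochromes restrain in light.

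Peaks lay near most of these genes in each replicate. Replicate 1 had peaks within 1000 bp of 7 of the 8, against 40.1% of all protein-coding genes. Replicate 2 had them at 8 of 8, against 79.0%, and replicate 3 at 7 of 8, against 67.7%. Peaks in all 3 replicates were found near 7 of the 8, with 34.1% of all protein-coding genes in that state, and the 1 exception was ARF7. The count of genes with peaks in at least 2 replicates was also 7, against 66.2% of all and 76.8% of those as long as these 8. The 8 genes are long, at 2707 to 5735 bp with a median of 4284 bp, against a median of 2078 bp over all protein-coding genes, and a longer window meets a peak more often. Among the 7734 protein-coding genes in that range of lengths, 46.2%, 87.8% and 77.1% had a peak in replicates 1, 2 and 3, and 40.7% had peaks in all 3. The counts for replicate 2, replicate 3 and at least 2 replicates therefore stood near their backgrounds among genes of like length. The genes were chosen with earlier results of these data known, so the counts were not tested.

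**Figure D1:**
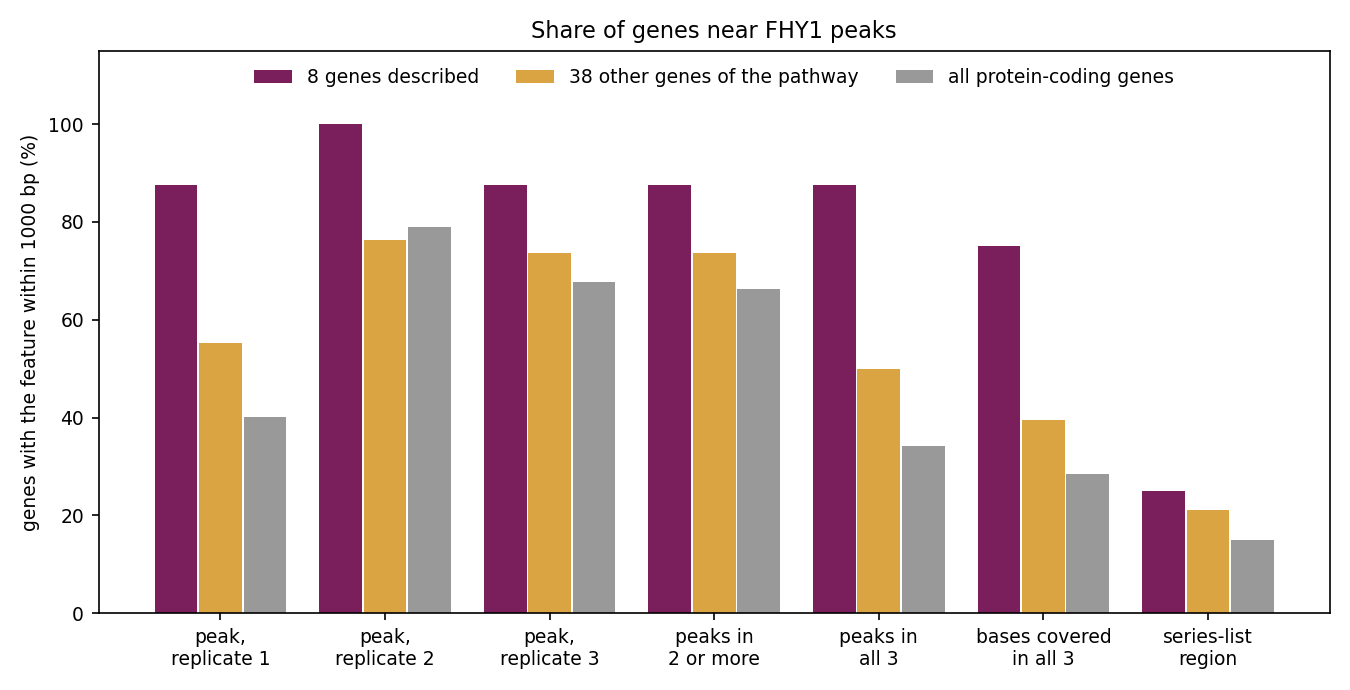
Share of genes (%, y axis) with each kind of feature within 1000 bp (x axis), for the 8 genes described, 38 other genes of the pathway and all 27432 protein-coding genes. Peaks in all 3 replicates were near 87.5% of the 8 genes, 50% of the pathway list and 34.1% of all genes.

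The 42 peaks behind these counts, 9 in replicate 1, 17 in replicate 2 and 16 in replicate 3, differed widely in size. The authors' fold enrichment, a ratio whose background is not stated, ran between 2.97 and 7.82 among them. Their widths ran between 262 and 3529 bp, and they held between 133 and 2557 tags each. Of the 42 peaks, 23 crossed a gene end, 14 lay only in the flank and 5 lay wholly inside a gene. The median fold was 4.89 across gene ends, 5.31 in flanks and 3.56 inside genes. These medians pool replicates and genes, and the 5 peaks inside genes came from 4 genes. They have no background over all genes, and the difference was not tested. Summits, the highest points of the peaks, lay within 250 bp of an end of the gene for 19 of the 42 (45.2%). For all peaks in windows of protein-coding genes, counted once for each gene they met, this share was 42.0%, so the position of the summits was near the background. Strand was not part of the gene table used. Gene ends are therefore called lower or upper by their coordinate, and starts and stops of transcription cannot be told apart.

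**Figure D2:**
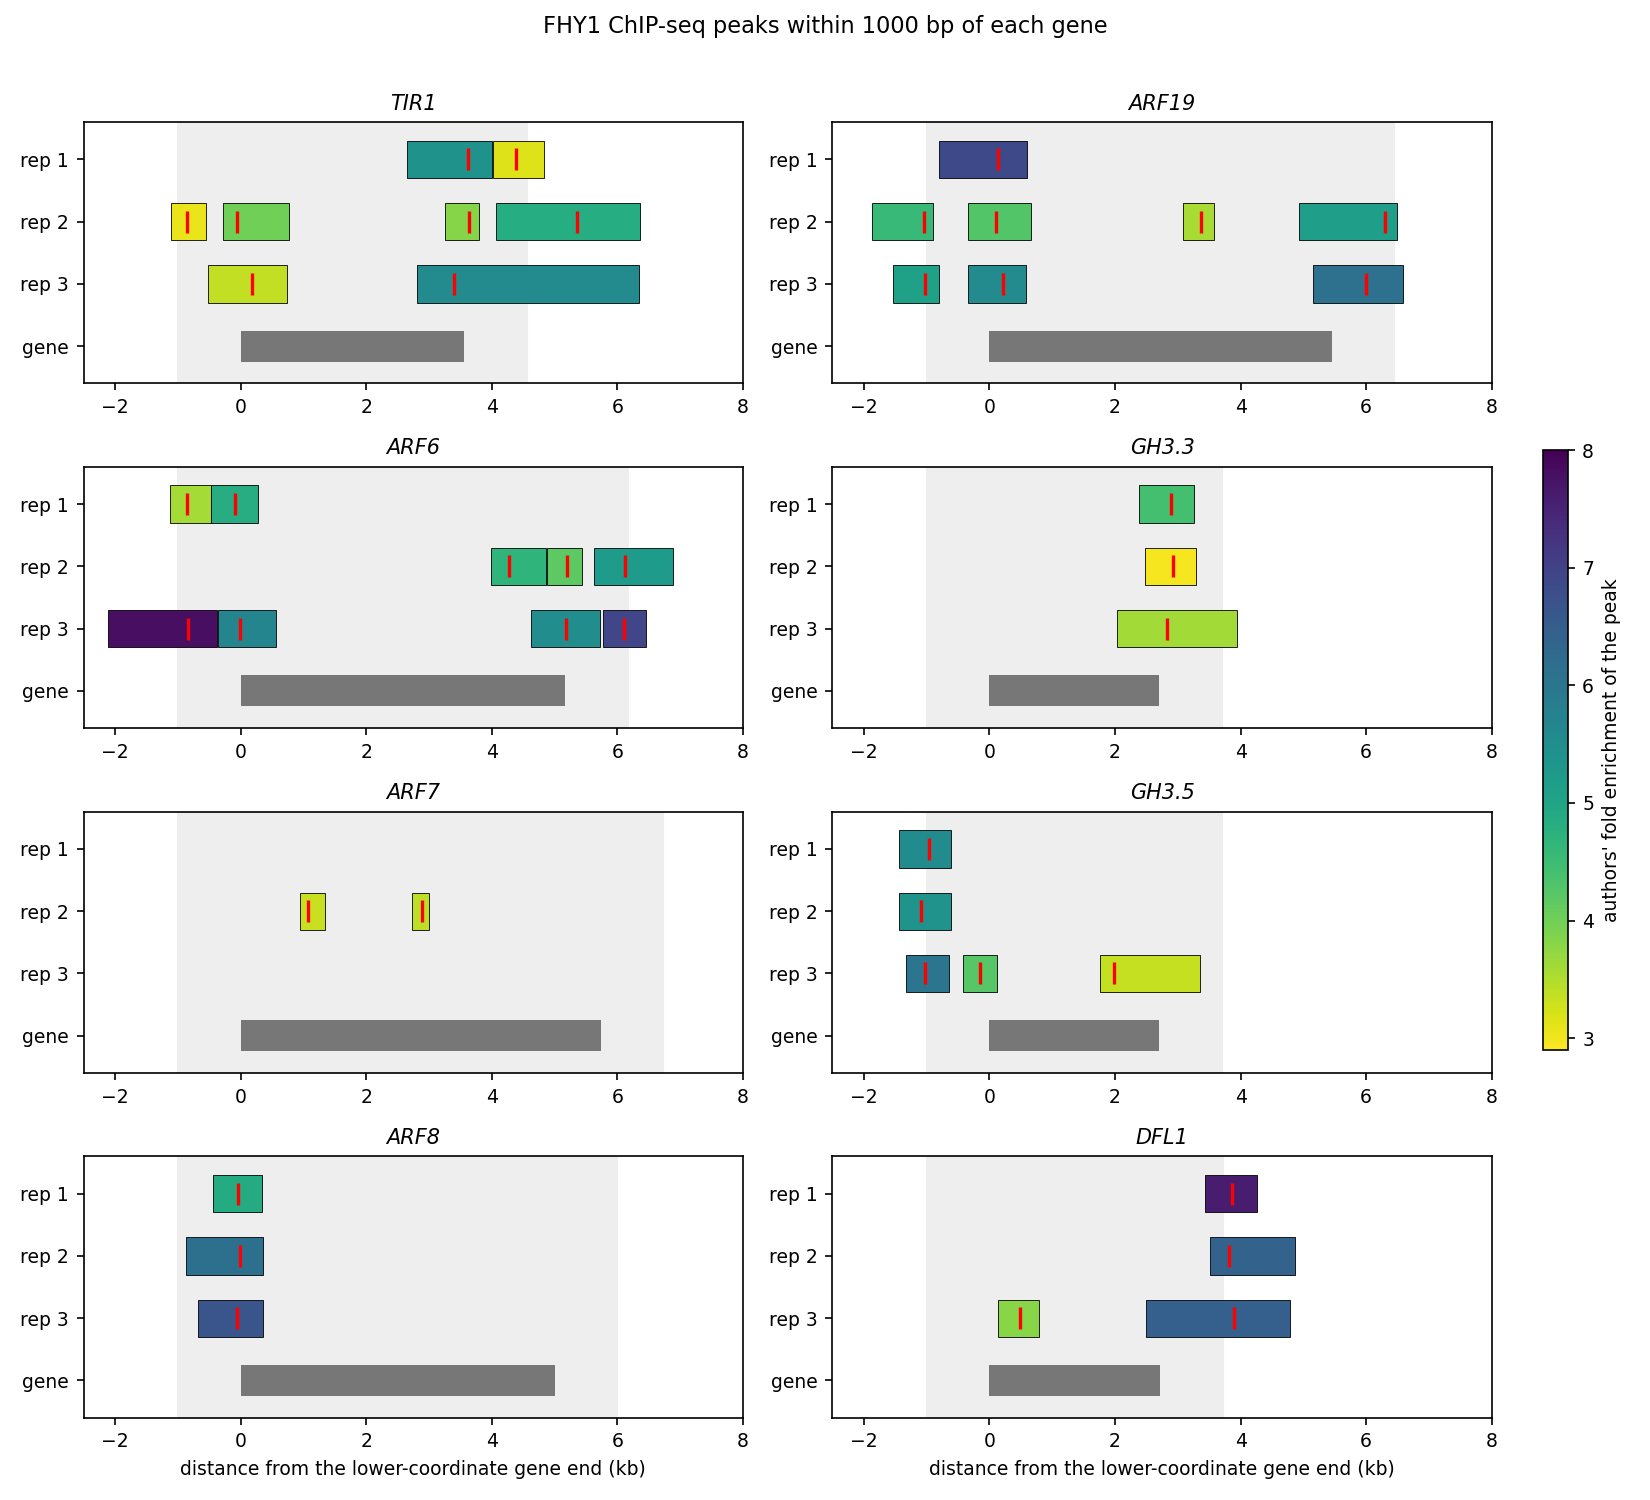
Position of every peak near the 8 genes, in kb from the lower-coordinate gene end (x axis), with 1 row for each replicate. Bars are peaks coloured by the authors' fold enrichment, red ticks are summits, the dark bar is the gene and the grey field is the window of 1000 bp at both ends. ARF8, GH3.3, GH3.5 and DFL1 have 1 peak in line in all replicates, ARF6 has peaks on opposite sides in replicates 1 and 2, and ARF7 has peaks in replicate 2 only.

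TIR1, the auxin receptor gene that gives the family its name, had 2, 4 and 2 peaks in replicates 1, 2 and 3. Its upper end carried a stretch covered in all 3 replicates, on chromosome 3 from 23276328 to 23276866, of which 303 bp were inside the gene. The peaks over this stretch had folds of 5.41, 3.82 and 5.57 in replicates 1, 2 and 3 (4.93 ± 0.967, SD, n = 3), with 830, 596 and 2557 tags. Replicate 2 was the lowest of them in fold and had the highest density, with 1110 tags per kb against 613 in replicate 1 and 725 in replicate 3. The summits of replicates 1 and 2 lay 51 and 70 bp outside the upper end and that of replicate 3 lay 160 bp inside it.

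Farther out from the same end of TIR1, a second stretch covered in all 3 replicates ran from 23277133 to 23277895, 502 bp beyond the gene. It had folds of 3.16, 4.85 and 5.57 (4.53 ± 1.24, SD, n = 3). These peaks had no common summit: the 3 summits spread over 1953 bp, and replicate 3 covered both stretches with a single peak of 3529 bp, at the 99.7th percentile of width in its list. In replicate 2 the peak there was 2293 bp wide and had a score of 1650.15, at the 99.7th percentile of its list. Its deposited false discovery rate was 3.04%, the highest among the 42 peaks, so a high score was not a low rate. The gene next to TIR1 on that side was 4160 bp from this summit.

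At the lower end of TIR1, replicate 2 had a peak with a fold of 4.01 and replicate 3 one with 3.37, while replicate 1 lacked a peak. The gene AT3G62970 reaches into both of these peaks, and the summits lay 13 and 256 bp from it. A further peak of replicate 2 in this window, at fold 3.07, had its summit inside AT3G62970. The lower end therefore had 2 of 3 replicates and folds near or below the medians of all peaks in their lists, 3.92 and 4.16.

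The 4 activating ARF genes differed in how far the replicates shared their peaks. ARF8 and ARF19 each had a stretch covered in every replicate. ARF6 had peaks in every replicate but no base covered in all of them, and ARF7 had peaks in 1 replicate. ARF6 and ARF8 are close relatives that act together in flower maturation and hypocotyl growth, and ARF7 (also named NPH4, for its role in phototropism) and ARF19 are a related pair that act together in lateral root formation. ARF6 and ARF8 both had a peak across the lower end in replicates 1 and 3, and in replicate 2 only ARF8 did. The folds were 4.82 and 5.67 at ARF6 and 4.89 and 6.67 at ARF8. ARF19 had a peak across its lower end in every replicate and ARF7 in none. The differences within pairs were not tested.

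ARF8 had the most regular signal of the 4. A single peak crossed its lower end in each replicate, and the stretch covered by all of them was on chromosome 5 from 14629011 to 14629786, with 334 of 776 bp inside the gene. The folds were 4.89, 6.13 and 6.67 (5.9 ± 0.913, SD, n = 3), at the 76.5th, 93.8th and 96.5th percentiles of the replicate lists. The peaks held 340, 827 and 745 tags, with replicate 1 the lowest. All 3 summits lay just outside the gene, 44, 11 and 58 bp from its end, so that they fell within 47 bp of each other. Over 6111 stretches near protein-coding genes with 1 peak in each replicate, the median range of the summits was 143 bp, with quartiles of 67 and 555 bp. In replicates 2 and 3 the peak also overlapped a transcribed pseudogene, AT5G37017, while the next protein-coding gene was 5172 to 5219 bp from the summits.

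ARF19 had a stretch covered in all 3 replicates at its lower end, on chromosome 1 from 6627339 to 6628269, with 587 of 931 bp inside the gene. The folds were 6.87, 4.28 and 5.57 (5.57 ± 1.3, SD, n = 3), with 854, 781 and 812 tags. Replicate 2 was the lowest in fold, at the 63.3rd percentile of its list, and replicate 1 the highest, at the 97.2nd. The summits were 142, 108 and 224 bp inside the gene. This stretch was shared with the neighbouring gene AT1G19210, which all 3 peaks overlapped and which ended 137, 103 and 219 bp from the summits, so the peaks cannot be ascribed to either gene alone.

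Replicates 2 and 3 had a further pair of peaks around ARF19 that replicate 1 lacked. Across the upper end they had folds of 5.16 and 6.12, with 987 and 785 tags, over a stretch from 6632841 to 6634174. The score in replicate 2 was at the 98.1st percentile of its list and in replicate 3 at the 94.0th. Beyond the lower end they had folds of 4.57 and 5.1, with summits 1039 and 1031 bp from ARF19 but only 150 and 142 bp from AT1G19210. A small peak inside ARF19 was called in replicate 2 only, at fold 3.56 with 208 tags.

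ARF6 had peaks in all 3 replicates, yet no base near it was covered in all of them. Its lower end carried peaks in replicates 1 and 3, with folds of 4.82 and 5.67 and 299 and 543 tags. Their summits were 82 and 5 bp outside the gene, and the stretch they shared ran on chromosome 1 from 10685456 to 10686093. Replicate 2 had nothing there. Its 3 peaks were in and around the other side of the gene. A peak with a fold of 4.68 and 393 tags lay wholly inside the gene, with its summit 890 bp from the upper end. The peak across the upper end had a fold of 4.17 and 253 tags, with its summit 38 bp outside the gene. The peak with a fold of 5.23 and 662 tags lay in the flank, 460 bp from the gene.

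Replicate 3 was the only list with peaks at both ends of ARF6. It had folds of 5.51 and 6.94 at and beyond the upper end, and 7.82 in the lower flank, where the peak of 1728 bp was at the 99.2nd percentile of fold. The peak of replicate 1 in this flank had a fold of 3.58 and a score of 52.62, close to 50, the lowest score in its list. Beyond the upper end the summits of replicates 2 and 3 lay 954 and 940 bp from the gene. The highest folds of the gene, 4.82, 5.23 and 7.82, thus came from 3 places, and their mean of 5.96 ± 1.63 (SD, n = 3) describes the window and not 1 site.

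ARF7 had peaks in the fewest replicates of the 8 genes. Replicates 1 and 3 had no peak within 1000 bp of it, and replicate 2 had 2 small ones inside the gene, on chromosome 5 from 7017392 to 7017782 and from 7019177 to 7019438. Their folds were 3.32 and 3.41, at the 20.7th and 26.1st percentiles, and they held 169 and 133 tags. In the same list GH3.3 had a lower fold, 2.97. With a flank of 2000 bp a peak of replicate 3 at fold 4.67 was also met, and replicate 1 still had none. The lists of replicates 1 and 3 hold 8423 and 19150 peaks, that of replicate 1 being the shortest. Reads were not examined, so whether ARF7 had signal without a called peak in these replicates was not tested.

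**Figure D3:**
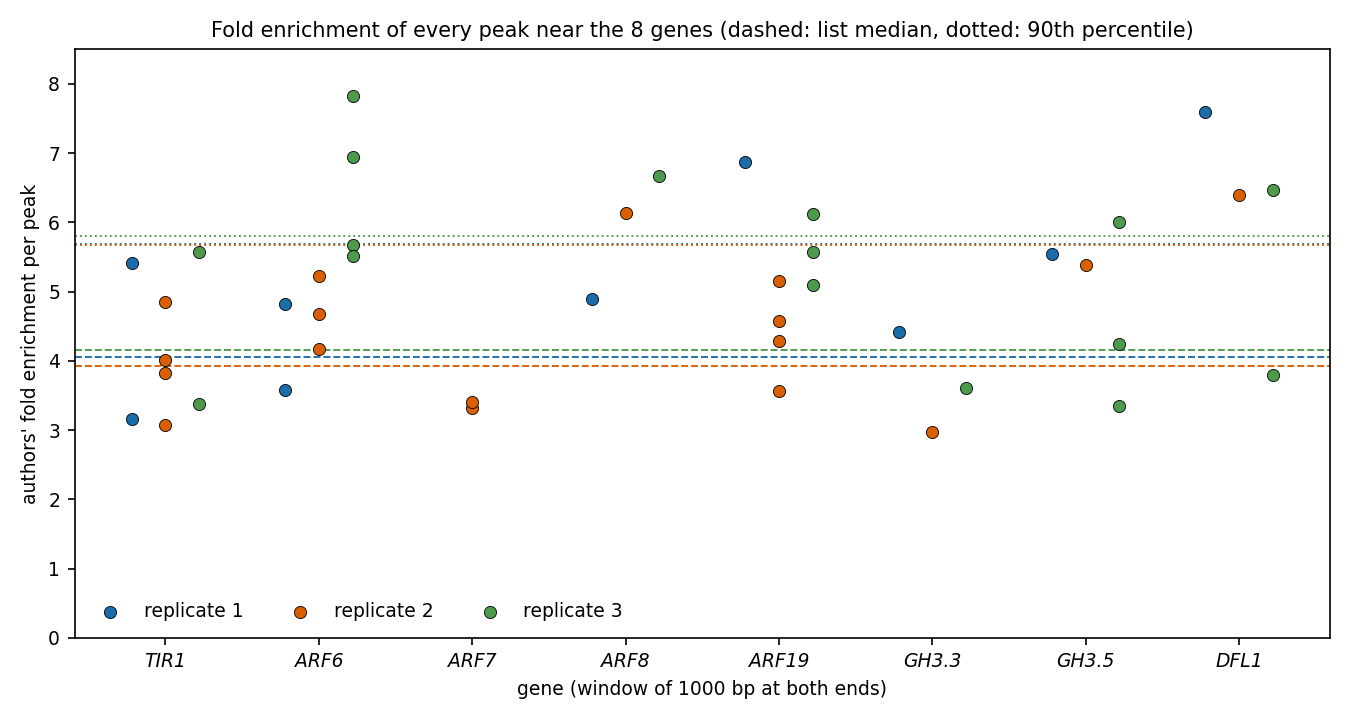
The authors' fold enrichment (y axis) of each of the 42 peaks near the 8 genes (x axis), by replicate. Dashed and dotted lines are the median and the 90th percentile of all peaks in each replicate's list. DFL1 has a peak above 5.8 in each replicate, while the peaks of ARF7 and, in replicates 2 and 3, GH3.3 lie below the list medians.

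The 3 GH3 genes each had 1 stretch covered in all replicates, at different distances. That of GH3.3 crossed a gene end, while those of GH3.5 and DFL1 lay wholly in the flank. GH3.3, GH3.5 and DFL1 act downstream of ARF6 and ARF8 in adventitious rooting, GH3.5 (also named WES1) also acts on salicylic acid, and DFL1 was named for the short hypocotyl that its overexpression gives in light.

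DFL1 had the highest mean fold of the stretches covered in all replicates near the 8 genes. Beyond its upper end, on chromosome 5 from 22134482 to 22135217, the peaks had folds of 7.59, 6.4 and 6.47 in replicates 1, 2 and 3 (6.82 ± 0.668, SD, n = 3). These were at the 98.5th, 95.5th and 95.5th percentiles of the lists, and the peaks held 570, 889 and 1267 tags. The stretch began 793 bp from the gene, and the summits lay 1135, 1085 and 1167 bp from it, within 82 bp of each other. The next protein-coding gene on record, FQR1, was 8155 to 8237 bp from the summits, on the other side of DFL1. Only the peak of replicate 3, 2300 bp wide, reached the gene. That replicate also had a peak inside the gene, at fold 3.8 with 304 tags, which the others lacked.

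GH3.5 had its stretch beyond the lower end, on chromosome 4 from 13652243 to 13652931, 647 bp from the gene. The folds of 5.55, 5.39 and 6.01 (5.65 ± 0.322, SD, n = 3) had the smallest SD of the stretches covered in all replicates near the 8 genes. The tags, 457, 562 and 458, were also close. The summits lay 957, 1084 and 1029 bp from GH3.5, and the nearest other protein-coding gene was 7988 to 8115 bp away. Nearer to GH3.5, replicate 3 alone had a peak across the lower end, at fold 4.24 with 222 tags, and one across the upper end, at 3.35 with 738 tags. Both this stretch and that of DFL1 depend on the flank: with 500 bp neither gene had peaks in all 3 replicates.

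GH3.3 had 1 peak in each replicate across its upper end, with low folds. The common stretch on chromosome 2 ran from 9866333 to 9867113, with 230 of 781 bp inside the gene. The folds were 4.42, 2.97 and 3.61 (3.67 ± 0.727, SD, n = 3), at the 63.7th, 1.45th and 26.7th percentiles. The value of replicate 2 was next to the lowest fold in any list, 2.95. The summits lay 177, 213 and 128 bp outside the gene and within 85 bp of each other. That range was between the lower quartile of 67 bp and the median of 143 bp over such stretches near protein-coding genes. The peaks held 558, 565 and 1114 tags, more than the list medians of 444, 360 and 451.5, so that these peaks were low in fold and not in tags.

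**Figure D4:**
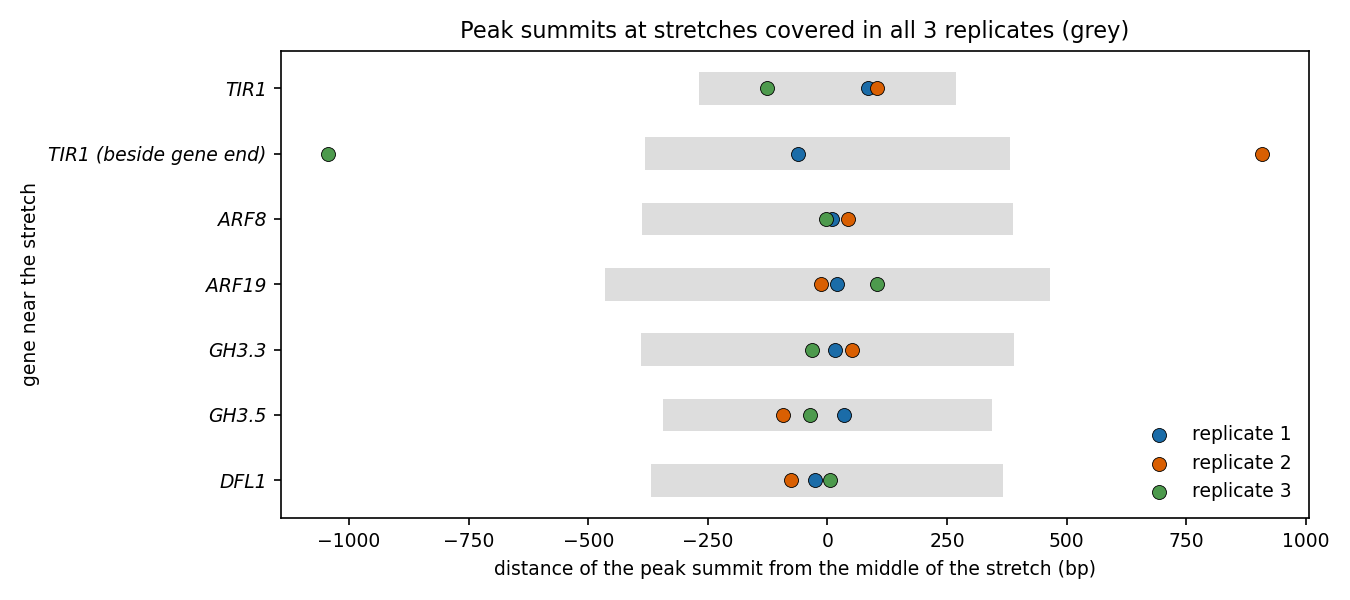
Summits of the 3 replicates (coloured points) at the stretches covered in all 3 (grey bars), as distance in bp from the middle of the stretch (x axis), for TIR1 and the other genes that have one (y axis). The summits fall within 47 to 127 bp of each other at ARF8, ARF19, GH3.3, GH3.5 and DFL1, within 230 bp at the end of TIR1, and over 1953 bp in the stretch beside it. Over 6111 such stretches near protein-coding genes the quartiles of this range were 67 and 555 bp and the median 143 bp.

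Stretches covered in all 3 replicates were thus found near 6 of the 8 genes, against 28.5% of all protein-coding genes and 33.3% of those of 2707 to 5735 bp. Ranked by the mean of the highest fold in each replicate, the genes with peaks in all of them ran as DFL1 (6.82 ± 0.668), ARF19 (6.05 ± 0.857), ARF6 (5.96 ± 1.63), ARF8 (5.9 ± 0.913), GH3.5 (5.65 ± 0.322), TIR1 (5.28 ± 0.378) and GH3.3 (3.67 ± 0.727), each with SD and n = 3. From each gene to the next, the neighbours in this order down to TIR1 differed by less than the larger of their SDs. GH3.3 stood below TIR1 by more than either SD. Their median was 5.9, against 4.71 over the 9349 protein-coding genes with peaks in all 3 replicates. DFL1 was at the 98.7th percentile of these genes, ARF19 at the 93.5th, TIR1 at the 76.5th and GH3.3 at the 4.05th. The highest of several peaks is taken in long windows, so this measure favours genes with many peaks, such as ARF19, which had 1, 4 and 3. At ARF6, ARF19 and TIR1 the 3 values came from different places, so their SDs are not spreads at 1 site. The stretch across the end of TIR1 had 4.93 ± 0.967, and the stretch of ARF19 had 5.57 ± 1.3.

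The authors' series list, which holds 3419 regions with a peak height in each of 3 samples, had regions near ARF8 and DFL1. These are 2 of the 8 genes, against 14.9% of all protein-coding genes and 17.9% of those of like length. At ARF8 the heights were 148, 236 and 216 in the columns named Sample1, Sample2 and Sample3 (200 ± 46.1, SD, n = 3). At DFL1 they were 292, 251 and 211 (251 ± 40.5). The medians of the list were 136, 190 and 165, so all 6 heights were above them, and the height of DFL1 in Sample1 was at the 98.5th percentile. The columns were not matched to replicate numbers, and the scaling of the heights is not stated. The summits of DFL1 lay 1137, 1077 and 1177 bp beyond its upper end, and those of ARF8 38, 8 and 53 bp outside its lower end. The stretches of TIR1, ARF19, GH3.3 and GH3.5 were not in the series list, and ARF6 met a region of it with a flank of 2000 bp. The region of DFL1 was lost, and only ARF8 had one, with no flank and with 500 bp. The same held with at least 50% or the midpoint of the region inside the window. Assignment to the nearest gene also left only ARF8, as regions with a midpoint more than 1000 bp from that gene were dropped.

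Other genes of the pathway were counted in the same windows. Of 38 such genes, all found in the annotation, 21 had peaks in replicate 1 (55.3%, against 40.1% of all protein-coding genes). Replicate 2 had them near 29 (76.3%, against 79.0%) and replicate 3 near 28 (73.7%, against 67.7%), so these 2 counts were near the background. Peaks in all 3 replicates were near 19 (50%, against 34.1%). Stretches covered in all replicates were near 15 (39.5%, against 28.5%), and regions of the series list near 8 (21.1%, against 14.9%). Their median length was 3147 bp, against 2078 bp over all protein-coding genes, and no background of like length was taken for them. How far length bears on these shares was not tested. Of the receptor genes AFB1 to AFB5, relatives of TIR1, 4 of 5 had peaks in all replicates, and AFB1 had none in replicate 3. Only 2 of these 5 had a stretch covered in all replicates. Of the 5 genes for SCF subunits and for AXR1, which takes part in activating the ligase, 2 had peaks and a stretch covered in all replicates. Of the 11 ARF genes outside a group on chromosome 1, MP (ARF5, a further activator) included, 7 had peaks in all replicates. A stretch covered in all was near 6 of the 11. Over all protein-coding genes 86.6% had a peak in at least 1 replicate. The group on chromosome 1, ARF12 to ARF15 and ARF20 to ARF23, consists of close copies, and 6 of its 8 genes had no peak in any replicate. How reads from such copies were counted is not given in the sources used here. Of 8 other GH3 genes 4 had peaks in all replicates, and 3 had a stretch covered in all. GH3.4 had no peak in any replicate. These 8 were taken by family, JAR1 and PBS3 included, and not by whether their enzymes act on auxin. JAR1 was among the 4.

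Of the pathway list, 8 genes had peaks in all replicates and a region of the series list. TPL, the corepressor recruited by Aux/IAA proteins, had highest folds of 5.99, 5.89 and 7.04 (6.31 ± 0.637, SD, n = 3), and its score was at the 94.1st percentile of a list or higher in each replicate. The receptor gene AFB2 had 4.69, 5.74 and 6.17 (5.53 ± 0.761). Another receptor gene, AFB5, had 3.26, 5.68 and 3.87 (4.27 ± 1.26), with replicate 2 apart from the others. Among the ARF genes, ARF2, a repressor of growth responses, had 6.55, 5.61 and 4.11 (5.42 ± 1.23), and ARF18 had 4.49, 4.51 and 4.01 (4.34 ± 0.283). The GH3 gene DFL2 had 4.28, 6.62 and 5.8 (5.57 ± 1.19). The SCF subunit genes ASK1 and ASK2 were lower, with 4.22, 2.97 and 3.6 (3.6 ± 0.625) and with 3.9, 4.04 and 3.77 (3.9 ± 0.135).

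**Figure D5:**
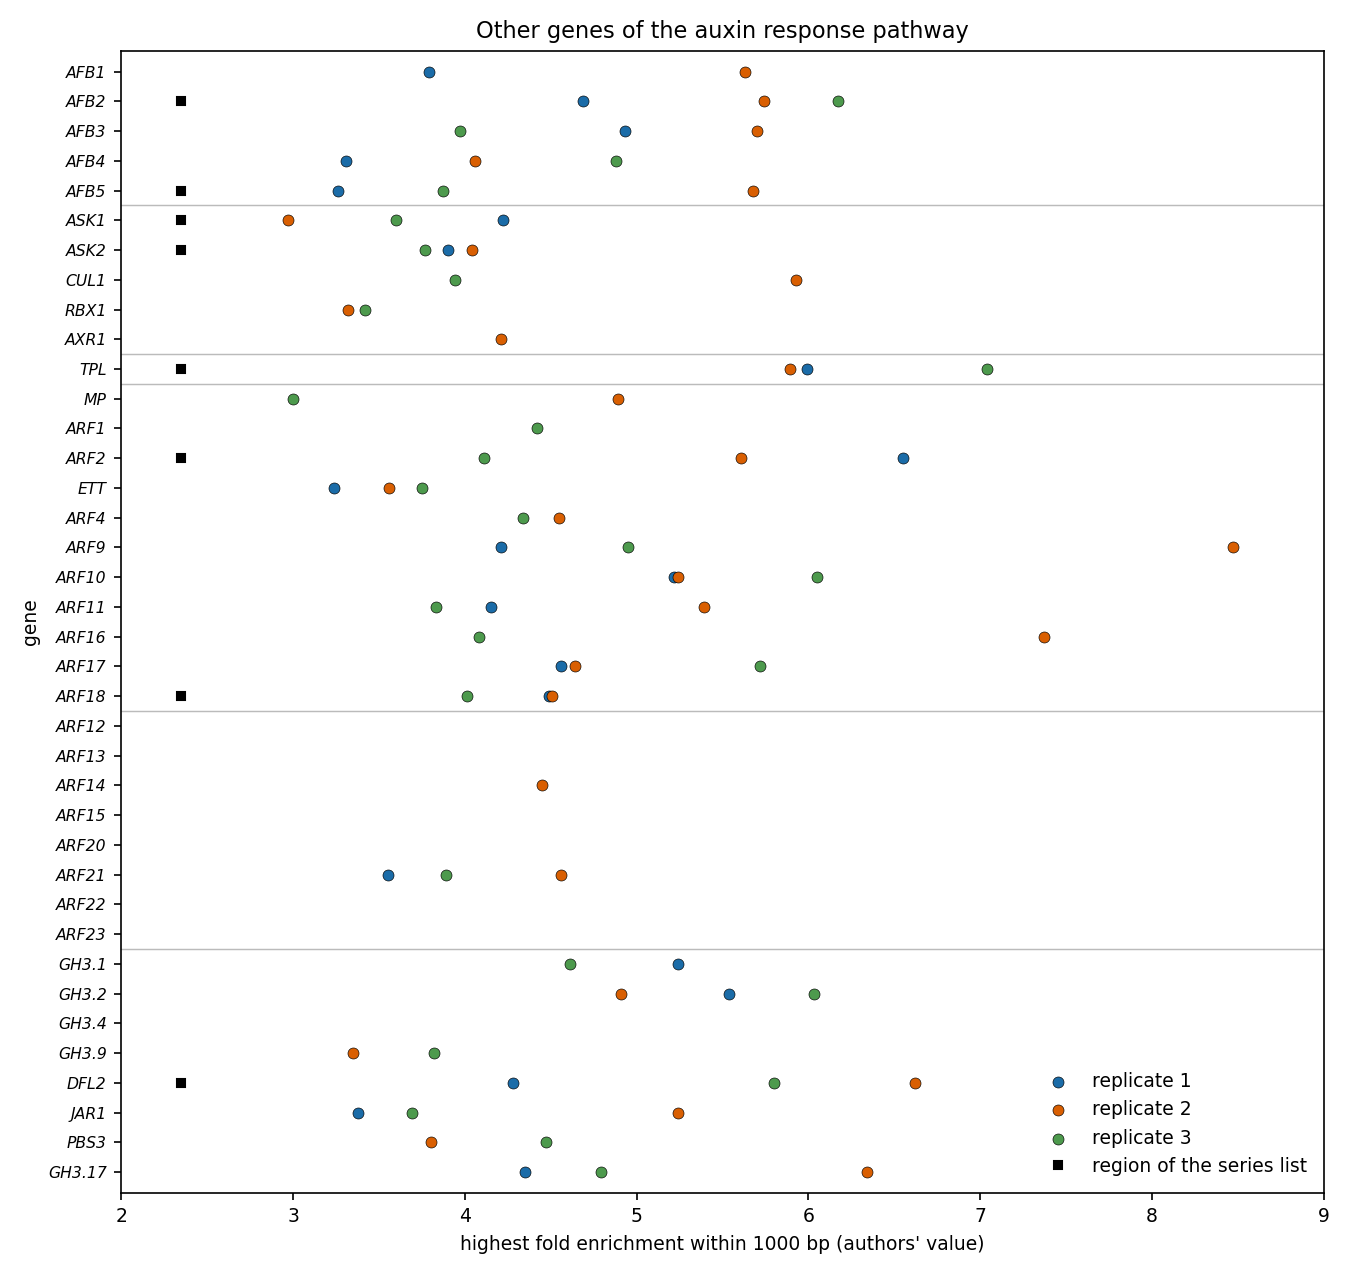
Highest fold enrichment within 1000 bp (x axis, the authors' value) for 38 other genes of the pathway (y axis), with 1 point for each replicate that had a peak. Lines part receptors, SCF genes, the corepressor, ARF genes, the ARF group on chromosome 1 and GH3 genes. The GH3 genes were taken by family, JAR1 and PBS3 included. Black squares mark the 8 genes with a region of the series list and peaks in all replicates.

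The genes whose highest folds were most like those of TIR1 were PAO3, for a polyamine oxidase, AT3G14750, AT3G14760, CYP705A24 of the cytochrome P450 family and VTE5, for a phytol kinase. They were the 5 nearest of 9349 genes by Euclidean distance over the log2 folds of 3 replicates, at 0.036 to 0.058. PAO3 had 5.39, 4.97 and 5.55, and AT3G14750 and AT3G14760 had identical values of 5.44, 4.85 and 5.41. The latter genes may share their peaks, since a peak counted for every gene whose window it met, and this was not checked. As each gene had 3 values, the likeness rests on little.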

How the data were processed

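FHY1 ChIP-seq of Arabidopsis seedlings was used as deposited. The submitters' processing notes name Bowtie and the TAIR10 build. The sources used here do not name the peak caller, its settings or its background. What the authors deposited is 1 peak list for each replicate, without a header, and 1 for the series. Columns were read from their values and layout: a whole-number tag count per peak, deposited without visible scaling; the authors' score, probably a multiple of the negative log of p; the authors' fold enrichment, a ratio per peak; and the deposited false discovery rate, a percent. In the deposited series list the signal is a peak height. Lists hold 8423, 28170 and 19150 peaks in replicates 1, 2 and 3, with 4541953, 12651543 and 10390173 tags. These sums are not depths, and the depth of the libraries is unknown. Lowest scores were 50, 50 and 50.01, and the highest false discovery rates 4.88%, 4.96% and 4.96%.

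Gene positions were those of RefSeq for TAIR10.1, and none of its coordinates is given. The match was checked by moving the summits: 43.3% lay in protein-coding genes unmoved, and 63.7% and 63.2% after shifts of 2000 bp down and up. A peak counted for every gene whose window it met by at least 1 bp. Percentiles are the share of a list at or below the value. Stretches were bases covered by peaks of all 3 replicates, or of at least 2 where so stated. Genes named were all 8, the pathway genes with peaks in all replicates and a series region, and the 5 most like TIR1. The genes and lists were chosen with earlier results of these data known. No test was run, since the 3 replicates are of 1 condition. Planned searches for motifs in promoters were not run, as no sequence was used here. Overlap code was tested on simulated intervals. Alternatives were the flank, the overlap rule, assignment to the nearest gene, stricter peak thresholds and leaving out replicates. In that assignment a peak went to the gene holding or nearest to its midpoint, and was dropped beyond 1000 bp. Work was done in Python 3.11.15 with pandas 2.3.3, numpy 2.4.6 and matplotlib 3.10.9.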

Additional observations from a re-analysis of the deposited data

How the results depend on the processing

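The count of 7 genes with peaks in all 3 replicates was 5 with no flank, with a flank of 500 bp, with at least 50% of the peak inside the window and with its midpoint inside, and 7 with a flank of 2000 bp. It was 4 when each peak went to the gene nearest its midpoint, within 1000 bp (TIR1, ARF6, ARF8 and GH3.3). GH3.5 and DFL1 fell to this distance limit and not to a nearer gene. With a false discovery rate of at most 1% the count was also 4 (TIR1, ARF6, ARF19 and GH3.3). A score of at least 100, or equal numbers of the highest scoring peaks, gave 6, without GH3.3 and ARF7. With that rate the count for at least 2 replicates was 4 and that for replicate 2 was 5. ARF8 was lost at rates of 1.19% and 1.04% in replicates 2 and 3. In replicates 1 and 2 DFL1 was lost at 1.21% and 1.05%, and GH3.5 at 1.32% and 1.03%. GH3.3, kept at rates of 0.42% to 0.96%, had the lowest mean fold of the 7 genes, so this filter did not select for fold. Assignment to the nearest gene left 4 in replicate 1. The count of 2 genes in the series list was 1, at ARF8, with no flank, 500 bp, 50% overlap, midpoint or nearest gene, and 3 with 2000 bp. Shares of all protein-coding genes under these settings are given only for peaks in all 3 replicates. The other counts therefore stand here without a background. Leaving out a replicate kept 7 each time, ARF7 being the one missing. The share of all protein-coding genes with peaks in all 3 replicates, 34.1%, was 23.6% with no flank, 29.4% with 500 bp and 43.6% with 2000 bp. The 95% Wilson interval of the 34.1%, 33.5% to 34.6%, treats genes as independent, although 1 peak can count for several. It does not cover the spread between replicates or settings. Further settings also moved the share. It was 28.8% with 50% overlap or midpoint and 17.1% with the nearest gene. It was 21.6% with scores of at least 100, 24.7% with the 1% rate and 17.9% with equal numbers. It was 36.0% to 61.0% when 1 replicate was left out, since fewer lists then had to have a peak. The 22 highest folds per gene and replicate gave 88 cases under 4 alternatives of flank and overlap. In 12 of these, all at GH3.5 and DFL1 in replicates 1 and 2, no peak was left, and of the other 76 values 66 moved by no more than 1 SD between replicates. No paired analysis was possible because the 3 replicates form 1 group and the input was not analysed here. The unknown depth of the libraries limits what a missing peak shows.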
